A study of Mus musculus with 28 samples.

Results

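The comparison described here set the young adult nerve at postnatal day (P) 60 against the nerve at P24, the last step of a developmental timeline of mouse nerve. It was made by taking the 4 libraries labelled P60 and the 4 labelled P24, which are 8 of the 28 bulk RNA-seq libraries of the series, and by testing every gene with enough reads. Each library came from the sciatic nerves of 1 mouse of the C57BL/6J background, wild type and not perfused before dissection, housed with a 12 h dark-light cycle and free access to food. Epineurium and perineurium had been stripped off by hand, so that the lysate was enriched for, but not limited to, the endoneurium with its axons and Schwann cells. The design names 2 male and 2 female animals per stage. Which library came from which sex was not given in the labels and was not used.

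Schwann cells wrap axons in myelin, a membrane rich in cholesterol and galactolipids, and each cell builds its sheath in the first weeks after birth. After that the sheath is mainly maintained and lengthened as the animal grows, while fibroblasts and Schwann cells have laid down the collagens and the basal lamina that hold the endoneurium together. Body growth in the mouse slows between weaning and adulthood, puberty falls in the same interval, and several growth-promoting imprinted genes are known to be switched down postnatally in many organs.

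Total counts ran from 14748717 to 30210173 at P24 and from 14499650 to 17167414 at P60. Levels below are CPM (counts scaled to a common library size of 1000000) after scaling of the library sizes by TMM, with mean ± SD over n = 4 libraries. Changes are log2 fold changes at P60 against P24 with their standard error (SE) from edgeR's quasi-likelihood test, and adjusted p-values were computed over all genes tested. A gene is described as higher, lower, risen or fallen when its adjusted p lay under 0.05 and it changed by at least 2-fold, and such genes are also named as called. A value in brackets after a gene, or a rise or fall by a value, is its log2 fold change, with ± its SE where given.

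The defining Schwann cell markers were abundant at both stages, with summed levels of their 7 genes of 40806 to 52573 CPM at P24 and 28261 to 37945 CPM at P60. The short marker sets of skeletal muscle, neuronal cell bodies, keratinocytes, and tendon and cartilage each summed to at most 15.5 CPM in any of the 8 libraries. Longer gene lists of these tissues, used further below, gave higher sums. The tendon and cartilage list summed to 155 to 460.4 CPM at P24 and 236 to 569.6 CPM at P60, lowest in replicate 2 at both stages. The skeletal muscle list summed to 17.9 to 27.4 CPM and the keratinocyte list to 7.79 to 34.1 CPM over both stages. P24 replicate 2 stood apart from the other P24 libraries in markers of the outer layers and of fat. Its 5 adipocyte markers summed to 6.12 CPM against 154 to 292 CPM in the other P24 libraries, its 3 perineurial markers to 518 against 759.6 to 785 CPM, and its 5 epineurial markers to 82.2 against 147 to 186 CPM. P24 replicate 2 was also the lowest P24 library for endothelial (146 against 232 to 257 CPM) and endoneurial markers (209 against 346 to 448 CPM). The same held for immune (76.6 against 118 to 130 CPM) and pericyte markers (384 against 486 to 549 CPM). P60 replicate 2 was the lowest P60 library for the adipocyte, perineurial and epineurial sets. Counts that rest on fibroblast, perineurial or fat genes are therefore also given without these libraries. The 4 erythroid markers summed to 58.3 to 153 CPM at P24 and to 16.7 to 34.8 CPM at P60, so the P60 libraries of these unperfused animals held less RNA of red blood cell genes.

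**Figure D1:**
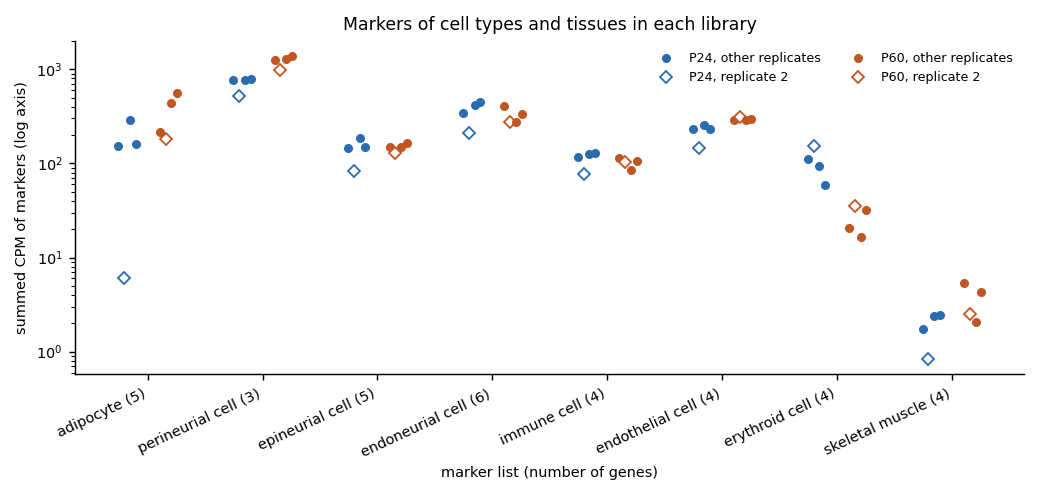
Summed CPM of marker genes of 8 cell types or tissues (log axis) in each of the 4 P24 libraries (blue) and the 4 P60 libraries (orange). Open diamonds are the replicates numbered 2. P24 replicate 2 is the lowest P24 library for every set shown but the erythroid one, and the erythroid sets of the stages do not overlap.

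Of 17700 genes tested, 1055 were called, which is 5.96% of the genes. The 451 genes higher at P60 made up 2.55% and the 604 lower genes 3.41%, and these shares are the background for the gene lists below. With library size alone in place of TMM, the split was 564 higher to 510 lower, and the median over all genes, on the log2 scale, moved from -0.005 to 0.10. A change of at least 4-fold was found for 124 lower and 90 higher genes, leaving out the 89 lower and 20 higher genes that had at most 3 counts in every library of a stage. With both replicates numbered 2 left out, 345 genes were higher and 564 lower. The called genes mostly had their extreme at the end of the timeline. Over the 7 stage means from embryonic day (E) 13 to P60, 336 of the 451 higher genes (74.5%) had their highest mean at P60, and 454 of the 604 lower genes (75.2%) had their lowest mean there. Among all genes tested these shares were 21.0% and 22.8%. Since a call fixes the order of P24 and P60, these shares are a description. The libraries of E13 held several peripheral nerves and those of E17 sciatic nerve, each from 2 embryos, so the embryonic means differ from the later ones in their material too. The 4 and 4 libraries did not overlap for 27.2% of all genes tested, and 5.15% were also called. The highest mean of the lower genes was most often at E17 (229 genes) or E13 (171), and 54 had it at P24.

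**Figure D2:**
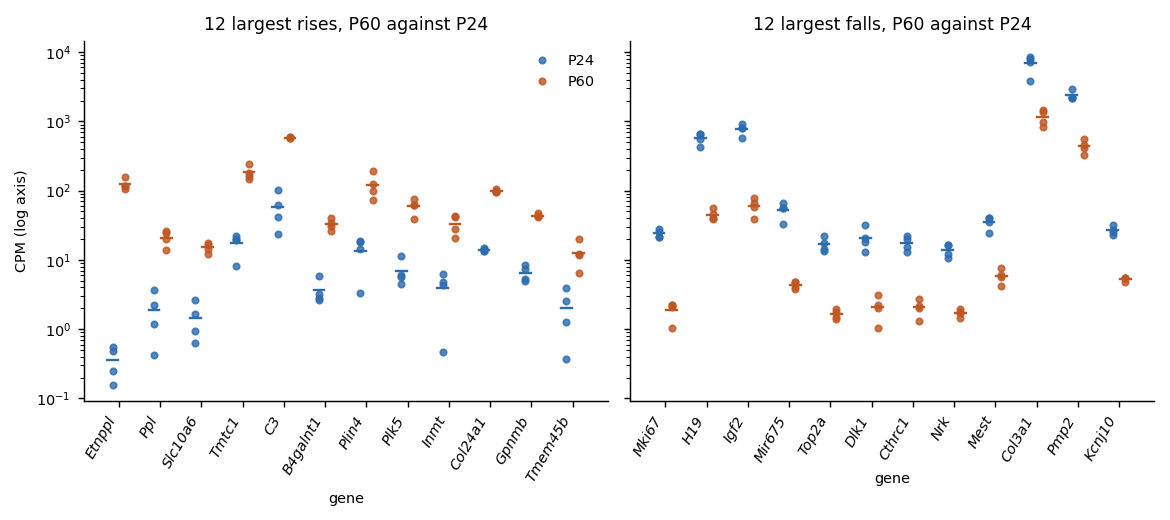
CPM (log axis) of the 12 genes with the largest rise and the 12 with the largest fall among called genes that reached a mean of 10 CPM at P24 or P60, in each of 4 P24 libraries (blue) and 4 P60 libraries (orange), with the mean as a bar. For all 24 genes the P24 and P60 libraries do not overlap, as the choice of genes required, and Etnppl shows the widest gap.

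The largest rise among these genes was that of Etnppl (ENSMUSG00000019232, GRCm38 chr3:130617448-130637521), which encodes the enzyme that breaks down phosphoethanolamine, a building block of ethanolamine phospholipids. It was measured at 0.552, 0.157, 0.247 and 0.489 CPM at P24 and 106, 115, 156 and 116 CPM at P60. The gene stayed below 1 CPM in every P24 library and lay above 100 CPM in every P60 library, a 342-fold rise (log2 fold change 8.42 ± 0.41, adjusted p = 1.6e-13). At the 5 earlier stages its mean was between 0.0286 and 0.0983 CPM. It was the one called gene among 17 tested genes of ethanolamine and choline phospholipid metabolism. Pcyt2, which commits phosphoethanolamine to phospholipid synthesis, stood at 288 ± 20.1 CPM at P24 and 187 ± 22.7 CPM at P60 (log2 fold change -0.62 ± 0.18, adjusted p = 0.014, under 2-fold), and Etnk1, the kinase that makes phosphoethanolamine, at 255 ± 34.5 and 244 ± 2.30 CPM (adjusted p = 0.9).

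The other large rises came from genes of several kinds. C3, the central component of complement, was measured at 41.5, 23.5, 103 and 62.7 CPM at P24 and 595, 568, 596 and 572 CPM at P60. The P60 libraries lay close together and all above the P24 libraries, which spread more than 4-fold among themselves (log2 fold change 3.33 ± 0.38, adjusted p = 4.1e-07). B4galnt1, the synthase of complex gangliosides, which are ligands of myelin-associated glycoprotein on the axon, stood at 5.91, 2.62, 2.82 and 3.20 CPM at P24 and 25.9, 30.4, 40.5 and 33.8 CPM at P60. It rose 9.15-fold without overlap (log2 fold change 3.19 ± 0.36, adjusted p = 3.3e-07). Col24a1, a fibrillar collagen chain, was measured at 14.7, 14.4, 13.4 and 13.4 CPM at P24 and 94.8, 97.5, 107 and 95.1 CPM at P60, with little spread within either stage (log2 fold change 2.82 ± 0.27, adjusted p = 1.8e-08). Gpnmb, a transmembrane glycoprotein of lysosomes and macrophages, rose from 6.49 ± 1.67 to 43.7 ± 2.67 CPM (2.76 ± 0.25). Plin4, which coats lipid droplets, and Tmtc1, an O-mannosyltransferase of the endoplasmic reticulum, rose 9.07-fold and 10.4-fold. The remaining rises of the set were Ppl, the cornified-envelope protein periplakin (3.45), Slc10a6, a transporter of steroid sulfates (3.42), Plk5, a polo-like kinase without mitotic function (3.14), Inmt, an amine N-methyltransferase (3.09), and Tmem45b (2.62). Etnppl, C3, B4galnt1, Tmtc1, Plin4, Inmt, Ppl, Tmem45b and Slc10a6 had their lowest P24 value in replicate 2, the library poor in markers of fat and the outer layers, and the part of those tissues in the changes was not tested. Without that library their log2 fold changes were 8.18, 3.07, 3.07, 3.15, 2.86, 2.71, 3.12, 2.27 and 3.17.

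Among abundant genes, 58 higher and 67 lower genes exceeded a mean of 100 CPM in the higher stage. Apod, Spp1 and Fth1 are named from among them after their values were seen, because they carry many reads. Apod, the lipid-binding apolipoprotein D, was measured at 1994, 1524, 2036 and 2143 CPM at P24 and 8318, 6399.6, 6846 and 6437 CPM at P60 (log2 fold change 1.86 ± 0.14, adjusted p = 5.1e-10). Spp1, the secreted matrix protein osteopontin, rose from 329 ± 48.2 to 1673 ± 65.8 CPM (2.35 ± 0.17), and Fth1, the heavy chain of the iron store ferritin, from 2556 ± 234 to 7756 ± 159 CPM (1.60 ± 0.18). Fth1 has processed copies in the genome that can share reads. For all 3 genes the stages did not overlap.

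Among the largest falls were those of genes from several groups below (Mki67, Top2a, H19, Igf2, Mir675, Dlk1, Mest, Col3a1 and Pmp2) and of 3 others. Cthrc1, a secreted protein of matrix-forming fibroblasts, was measured at 19.9, 13, 15.6 and 22.2 CPM at P24 and 2.19, 1.31, 2.05 and 2.76 CPM at P60 (log2 fold change -3.08 ± 0.18, adjusted p = 5.4e-12). Nrk, an X-linked kinase known from placenta and embryo, was measured at 12.1, 10.6, 16.2 and 16.7 CPM at P24 and 1.75, 1.96, 1.43 and 1.70 CPM at P60 (-3.03 ± 0.42). Kcnj10, the inwardly rectifying potassium channel Kir4.1 of glia, was measured at 25.2, 32.3, 22.9 and 27.1 CPM at P24 and 5.56, 4.86, 5.41 and 5.53 CPM at P60 (-2.33 ± 0.16), after a mean of 686 CPM at P1. All 3 were without overlap, and Kcnj10 was the one called member of the 21 potassium channels and transporters tested.

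Proliferation genes fell. Of the 40 tested genes of the cell cycle list, 22 were lower and none was higher, a share of 55.0% against the background given above, and the median log2 fold change was -1.24 against -0.005 for all genes. Mki67 (chr7:135689784-135716361), the marker of cells outside quiescence, was measured at 21.5, 21.4, 25.6 and 28.3 CPM at P24 and 2.27, 2.10, 1.06 and 2.20 CPM at P60, a 12.8-fold fall (log2 fold change -3.68 ± 0.28, adjusted p = 2.3e-10). Top2a, the topoisomerase that untangles replicated chromosomes, stood at 14.3, 13.4, 17.8 and 21.9 CPM at P24 and 1.39, 1.74, 1.49 and 1.95 CPM at P60 (-3.36 ± 0.21). The kinetochore genes Cenpf (-3.61) and Bub1 (-3.23), the mitotic cyclins Ccnb1 (-2.90) and Ccna2 (-2.70) and the mitotic kinase gene Cdk1 (-2.52) fell with them, and in each the P24 and P60 libraries did not overlap. Genes of DNA replication gave smaller values. Mcm5 fell by 1.14 on the log2 scale, Mcm2 (log2 fold change -0.99, adjusted p = 0.0032) was just under 2-fold, and Pcna, the sliding clamp that also serves DNA repair, was at 59.2 ± 2.53 and 53.3 ± 3.11 CPM (adjusted p = 0.27). Ccnd1, the cyclin of growth-factor-driven entry into the cycle, went from 159.8 ± 6.17 to 81.7 ± 8.92 CPM, a log2 fold change of -0.97 that also missed the 2-fold limit. Uhrf1, which carries DNA methylation through replication, fell by 2.6 without overlap. In bulk tissue, fewer cells of a type and less RNA per cell cannot be told apart, here and in all that follows.

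The upstream sequences of Mki67 and Cdk1 are printed to show the elements for which mitotic promoters are known. Capitals mark matches, on either strand, to the cell cycle homology region TTTGAA and to the NF-Y box CCAAT in the 250 bases before the RefSeq start (GRCm38.p6, both on the minus strand, chr7:135716380-135716629 and chr10:69352913-69353162). Letters are written 5′ to 3′ along the transcript's direction.
Mki67: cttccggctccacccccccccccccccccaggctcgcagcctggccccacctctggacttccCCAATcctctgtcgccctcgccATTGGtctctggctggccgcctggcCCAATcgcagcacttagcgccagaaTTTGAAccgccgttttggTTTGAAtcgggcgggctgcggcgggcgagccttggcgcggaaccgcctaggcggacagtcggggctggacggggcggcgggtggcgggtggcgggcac
Cdk1: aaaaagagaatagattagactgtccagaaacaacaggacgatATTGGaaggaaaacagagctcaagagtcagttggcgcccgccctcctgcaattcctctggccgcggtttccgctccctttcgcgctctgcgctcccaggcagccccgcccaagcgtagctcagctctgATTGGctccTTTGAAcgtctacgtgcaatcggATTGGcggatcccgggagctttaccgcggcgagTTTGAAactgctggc
Each holds 2 matches to TTTGAA and 3 to CCAAT. Among the 18 upstream windows found for 17 of the 22 fallen cell cycle genes, 7 (38.9%) held TTTGAA and 15 (83.3%) held CCAAT, compared with 16% and 33.8% of all 32851 windows of that length. Among windows of the genes tested here the shares were 10.9% and 34.7%. A match describes the letters only.

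Of the 27 imprinted genes tested, 13 fell and none was higher. The 13 lower genes are 48.1% of the list, 7 genes had positive values, and the median log2 fold change of the list was -0.78. The summed share of all counts was 0.458 ± 0.103% at P24 and 0.433 ± 0.0716% at P60. Igf2 (chr7:142650766-142666816), the fetal insulin-like growth factor, was measured at 798, 570.0, 815 and 918 CPM at P24 and 38.4, 58.7, 67.2 and 78.9 CPM at P60 (log2 fold change -3.67 ± 0.20, adjusted p = 1.2e-12). H19 (chr7:142575529-142578143), the maternally expressed noncoding RNA beside it, was measured at 564, 422, 667 and 651 CPM at P24 and 46.7, 38.9, 39.9 and 55.3 CPM at P60 (log2 fold change -3.67 ± 0.19, adjusted p = 6.4e-13). The fall was 12.7-fold for Igf2 and 12.7-fold for H19, and the libraries of the stages stood far apart. Igf2 overlaps the gene model Gm49394 on the same strand, so its counts may be split. At the 5 stages before P24 the mean of Igf2 was 783 to 1668 CPM and that of H19 1086 to 2550.0 CPM, so that both genes had held more than 700 CPM until P14. Mir675, which lies within H19 and shares its reads, fell by 3.59 on the log2 scale.

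Since poly-A libraries count the host transcript, the values of Mir675 do not measure the mature miRNAs. Their sequences, credited to RefSeq (GRCm38.p6), are given for reference with the seed (bases 2 to 8) in capitals, and the arms have different seeds. They lie on the minus strand at chr7:142577112-142577133 and chr7:142577078-142577099.
mmu-miR-675-5p: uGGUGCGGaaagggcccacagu
mmu-miR-675-3p: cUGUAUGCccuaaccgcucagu
Other imprinted loci moved in the same direction. Dlk1, a paternally expressed inhibitor of adipocyte differentiation, was measured at 31.8, 13.2, 17.9 and 20.9 CPM at P24 and 1.02, 2.03, 2.24 and 3.14 CPM at P60 (log2 fold change -3.28 ± 0.41, adjusted p = 1.7e-06). The maternally expressed noncoding RNAs of the same domain fell too, Meg3 by 1.33, Rian by 1.62 and Mirg by 1.28, although host and small RNA genes overlap there and their counts are uncertain. Mest fell by 2.58, the zinc finger genes Zim1 and Plagl1 by 2.18 and 1.91, Ndn, a growth suppressor gene, by 1.29 and the amino acid transporter gene Slc38a4 by 1.13. Usp29 and Magel2 were called as well, but at P60 no library had more than 3 of their counts and no fold is given. Not all members fell: Sgce stood at 121 ± 9.08 and 124 ± 5.94 CPM (adjusted p = 0.83), and Cdkn1c, an inhibitor of cyclin-dependent kinases, at 24.5 ± 8.46 and 19.5 ± 4.56 CPM (adjusted p = 0.31). Grb10 (log2 fold change -0.78, adjusted p = 0.00016) stayed under 2-fold. Single libraries decided the calls of Slc38a4 (without P60 replicate 3, -0.99 with an adjusted p of 9.6e-05) and Magel2 (without P24 replicate 2 or P60 replicate 4, with an adjusted p of up to 0.06).

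**Figure D3:**
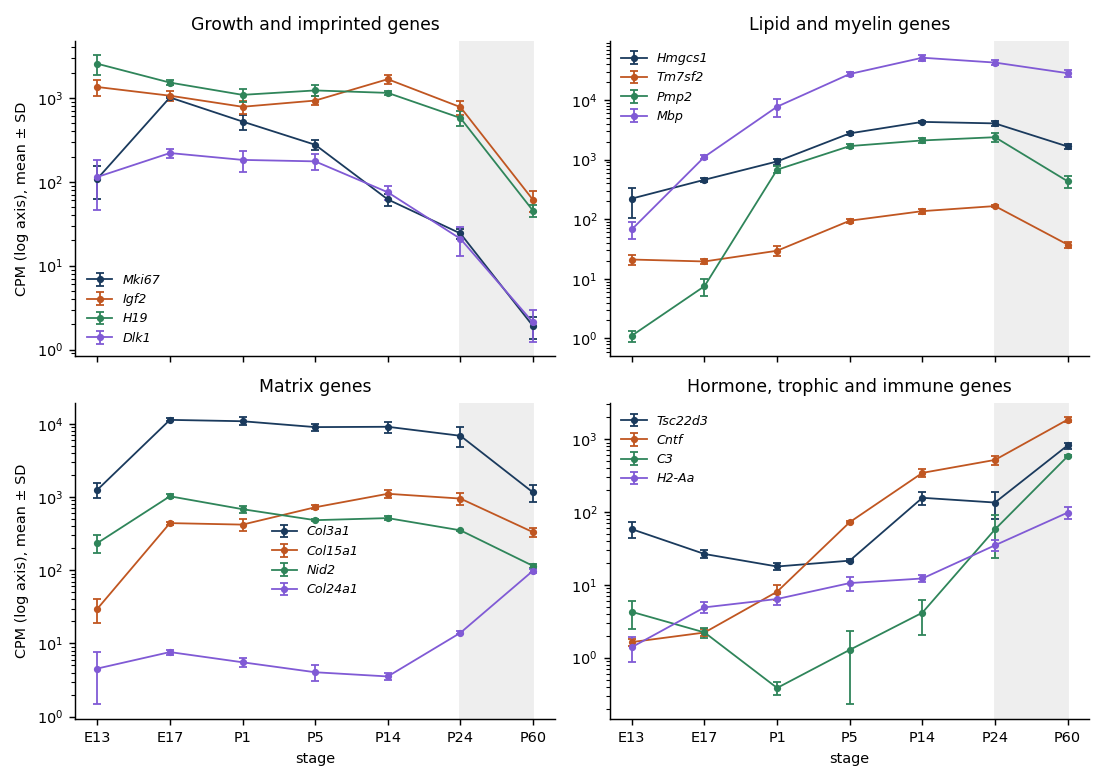
CPM (log axis) of 16 genes at the 7 stages, as mean ± SD of 4 libraries per stage. The grey band marks the step from P24 to P60. Igf2, H19, Col3a1 and Pmp2 are lower at the right edge of the band than at its left edge, Mki67 falls from E17 onwards, and Cntf rises from stage to stage.

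Cholesterol synthesis genes shifted downward as a list. All 23 tested genes of synthesis and uptake had a negative log2 fold change, with a median of -1.06, and 12 (52.2%) were called lower. Their summed share of all counts went from 1.19 ± 0.0439% at P24 to 0.602 ± 0.0463% at P60. The Schwann cell markers given above were also lower in sum at P60, without overlap. Most of that sum came from Mbp, a myelin gene described below, and none of the 7 markers was called. Their part in the result was not tested. At the entry of the pathway, Hmgcs1 (chr13:119690379-119708260), the HMG-CoA synthase, was measured at 3619, 4477, 3994 and 4168 CPM at P24 and 1688, 1885, 1530.4 and 1556 CPM at P60 (log2 fold change -1.29 ± 0.20, adjusted p = 3.7e-05). Every P60 library lay below every P24 library. The isoprenoid steps followed, with Mvk at -1.06, Mvd at -1.61, Idi1 at -1.63 and Fdps at -1.40. So did the sterol steps, with Lss at -1.52, Cyp51 at -1.46, Msmo1 at -1.14, Nsdhl at -1.57 and Dhcr7 at -1.46. The fall of Tm7sf2, a sterol reductase, was the deepest of the list: it stood at 170.0, 170.2, 168 and 157 CPM at P24 and 36.4, 43.1, 31.8 and 38.8 CPM at P60 (log2 fold change -2.15 ± 0.13, adjusted p = 1.1e-11), and it overlaps Vps51 on the same strand. Sqle was just under the 2-fold limit (-1.0, adjusted p = 6.6e-08) and was called under 7 of the alternatives that kept that limit, and Fdft1 (-0.71) and the feedback gene Insig1 (-0.68) passed the p threshold below 2-fold. Srebf2, the transcription factor of the pathway, was at 293 ± 22 CPM at P24 and 278 ± 32.0 CPM at P60, a difference within the replicate spread (adjusted p = 0.88). A call lost when 1 library was left out was that of Mvk (without P60 replicate 1, -0.97 with an adjusted p of 0.031).

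The upstream sequence of Hmgcs1 (plus strand, chr13:119690101-119690350) is shown because its promoter carries the sterol response element for which the pathway is known. Capitals mark a match to TCACNCCAC and 3 matches to CCAAT, each on either strand.
Hmgcs1: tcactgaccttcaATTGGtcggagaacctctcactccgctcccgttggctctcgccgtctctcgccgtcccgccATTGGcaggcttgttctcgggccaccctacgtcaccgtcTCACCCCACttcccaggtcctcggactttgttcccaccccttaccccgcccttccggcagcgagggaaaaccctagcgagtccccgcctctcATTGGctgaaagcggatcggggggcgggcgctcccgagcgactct
Of the 12 upstream windows found for 10 of the fallen cholesterol genes, 10 (83.3%) held CCAAT against 33.8% of all windows. The strict TCACNCCAC was found in 1 of them (8.33%) and in 1.05% of all windows. Among windows of the genes tested the shares were 34.7% for CCAAT and 1.03% for TCACNCCAC.

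Other lipid genes moved less evenly. Of 22 genes of fatty acid and glycerolipid synthesis, 3 were lower and 2 higher, with a median of -0.24. The fallen genes were Elovl6, the elongase of palmitate (-1.52), Fads2, the delta-6 desaturase (-1.21), and Acsl3, an acyl-CoA synthetase (-1.01). The risen genes were Lpin1, a phosphatidate phosphatase (1.15), and Thrsp, an inducer of lipogenesis in fat (1.71), which was lowest in the P24 library poor in adipocyte markers. Scd2, the abundant stearoyl-CoA desaturase, was measured at 8989, 10569.5, 9412 and 9815 CPM at P24 and 5759, 6479, 5633 and 5453 CPM at P60, lower at P60 without overlap but by under 2-fold (log2 fold change -0.73 ± 0.09, adjusted p = 8.2e-07). In sphingolipid and galactolipid metabolism, 1 of 20 genes was lower, Ugt8a, the galactosyltransferase that makes the galactolipids of myelin, at 3369.6 ± 468 CPM at P24 and 1456 ± 114 CPM at P60 (log2 fold change -1.21 ± 0.19, adjusted p = 3.4e-05). Degs2, a desaturase and hydroxylase of sphingolipids, was higher (1.38). Fatty acid oxidation had 1 called gene among 22, Pdk4, the kinase that closes pyruvate dehydrogenase (2.06). Leaving out 1 library ended the calls of Acsl3 (without P24 replicate 2, 3 or 4 or P60 replicate 3 or 4, -0.99 to -0.95 with an adjusted p of up to 0.0071) and Thrsp (without P24 replicate 1 or 4 or P60 replicate 1, 1.55 to 1.67 with an adjusted p of up to 0.059). Without P24 replicate 3 the log2 fold change of Thrsp was 2.44.

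Most myelin protein genes were not called. Of the 21 tested, 2 were lower (9.52%), and the median log2 fold change was -0.22. The share of all counts held by these 21 genes was 11.6 ± 0.888% at P24 and 9.10 ± 0.632% at P60. Pmp2 (chr3:10179851-10183929), the fatty acid binding protein of peripheral myelin, was the exception in size. It was measured at 2192, 2929, 2273 and 2141 CPM at P24 and 449, 553, 326 and 409 CPM at P60 (log2 fold change -2.46 ± 0.18, adjusted p = 1.4e-10), and it had been at 2103 CPM at P14. The other lower gene was Gjc3, a connexin of the sheath (-1.09 ± 0.16). Mbp, the myelin basic protein, was measured at 44129, 47424, 42238 and 36849.6 CPM at P24 and 24093, 33075, 26983 and 29115 CPM at P60, and Pmp22, a tetraspan protein of compact myelin, at 53268, 65632, 51567 and 48281 CPM at P24 and 34737, 41554, 33195 and 34557 CPM at P60. The libraries of the stages did not overlap for either gene, and both changes were under 2-fold (-0.59 and -0.60, adjusted p = 0.041 and 0.0017). Mag, the adhesion molecule that faces the axon, was likewise under 2-fold (-0.85, adjusted p = 0.013). Prx, which organises the outer sheath with the dystroglycan complex, stood at 9344 ± 843 and 8021 ± 1032 CPM (adjusted p = 0.55). Ncmap, a protein of noncompact myelin, was at 1064 ± 107 and 997 ± 114 CPM (adjusted p = 0.79). Drp2, the partner of periaxin, went the other way, from 4353 ± 293 to 7577 ± 427 CPM, without overlap and under 2-fold (0.80, adjusted p = 5.1e-05). Leaving out 1 library brought under 2-fold the call of Gjc3 (without P24 replicate 2, -0.97 with an adjusted p of 8.9e-05).

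None of the 20 Schwann cell transcription factors tested was called (6 at an unadjusted p under 0.05, 0 by DESeq2, 1 by limma-voom, up to 2 when 1 library was left out (P24 replicate 4), 1 without both replicates numbered 2 and 4 without the fold minimum), and their median was -0.09. A member had at most 3 counts in every P60 library, and the median was -0.06 with that member set against a floor of 3 counts. Sox10, which specifies the lineage, was measured at 462, 403, 373 and 321 CPM at P24 and 332, 502, 472 and 489 CPM at P60, with overlapping groups (adjusted p = 0.71). Egr2, the activator of myelination, stood at 165 ± 20.8 and 229 ± 41.0 CPM (0.47, adjusted p = 0.033), and Pou3f1, its promyelinating partner, at 22.3 ± 3.92 and 11.4 ± 3.53 CPM (-0.97, adjusted p = 0.0023). Of the 15 genes of immature and non-myelinating (Remak) Schwann cells, 3 were lower. Fabp7, a fatty acid binding protein of glial progenitors, was measured at 4.89, 6.33, 2.72 and 2.22 CPM at P24 and 0.658, 0.290, 0.622 and 1.19 CPM at P60 (-2.49 ± 0.42), Gfra3, a receptor for artemin, fell by 1.27, and Matn2, a matrix protein, by 1.11. The neurotrophin receptor gene Ngfr (-0.60, adjusted p = 0.0058) and the adhesion gene Ncam1 (-0.36, adjusted p = 0.028) had lower values at P60 that stayed under 2-fold.

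Many collagen genes fell. Of 39 chains tested, 14 were lower (35.9%) and 2 higher, and the median was -0.78. The 6 markers of endoneurial mesenchymal cells summed to 209 to 448 CPM at P24 and 274 to 406 CPM at P60, and their part in the result was not tested. With P24 replicate 2 left out, 17 were lower, and with both replicates numbered 2 left out, 16. The chains together held 2.25 ± 0.425% of all counts at P24 and 1.02 ± 0.0657% at P60. Col3a1 (chr1:45311538-45349706), the chain of type III collagen, was measured at 7118, 3819.8, 8083 and 8465 CPM at P24 and 1436, 1375, 821 and 995 CPM at P60. The lowest P24 value was that of replicate 2 and still lay above every P60 value (log2 fold change -2.57 ± 0.21, adjusted p = 1.8e-09). Col1a1, Col1a2 and Col5a1, also fibrillar chains, fell less, Col1a1 from 2594 ± 639 to 934 ± 112 CPM (-1.47), Col1a2 from 5253 ± 566 to 2038 ± 234 CPM (-1.37) and Col5a1 from 722 ± 93.8 to 285 ± 27.1 CPM (-1.34). Among the chains of type VI collagen, which forms beaded filaments, Col6a1 fell by 1.25 with overlapping groups, Col6a2 by 1.53, Col6a3 by 1.67 and the rarer Col6a6 by 3.73. Col14a1, which coats fibrils, fell by 1.56, and Col15a1, which links fibrils to the basement membrane, by 1.53. Among the network chains of basement membranes, Col4a1 was measured at 2886, 2637, 2752 and 2568 CPM at P24 and 1546, 1856, 1702 and 1678 CPM at P60, below 2-fold but without overlap (log2 fold change -0.68 ± 0.19, adjusted p = 0.015), and Col4a2 did not pass the p threshold (-0.52, adjusted p = 0.098). The higher chains were Col24a1, described above, and Col4a3, with 3.94, 1.94, 8.54 and 10.7 CPM at P24 and 28.7, 5.44, 14.9 and 18.6 CPM at P60, for which the groups overlapped (log2 fold change 1.41 ± 0.46, adjusted p = 0.035). Leaving out 1 library ended the call of Col4a3 (without P24 replicate 1 or 2 or P60 replicate 1, 3 or 4, 1.03 to 1.47 with an adjusted p of up to 0.17).

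Serpinh1, the chaperone dedicated to procollagen, was measured at 838, 768, 885 and 791 CPM at P24 and 265, 306, 249 and 286 CPM at P60 (log2 fold change -1.57 ± 0.20, adjusted p = 2.4e-06), and Loxl2, a cross-linking oxidase, fell by 1.28. P3h2, which hydroxylates basement membrane collagen, rose by 1.52. Lox, the main cross-linking oxidase, stood at 606 ± 45.7 CPM at P24 and 1213 ± 31.4 CPM at P60, which did not pass the 2-fold limit (1.0, adjusted p = 0.0051) but did under 14 of the alternatives that kept it. In all, 3 of 21 processing genes were lower and 1 was higher. Of 21 laminin, integrin and basal lamina genes, 7 were lower (33.3%) and none was higher. Lama2, the laminin chain whose loss causes a dysmyelinating neuropathy, was measured at 1097, 1088, 1124 and 1305 CPM at P24 and 600.2, 516, 487 and 473 CPM at P60 (log2 fold change -1.15 ± 0.18, adjusted p = 3.2e-05). Lama4 (-1.10), Lamc1 (-1.22) and the bridging nidogens Nid1 (-1.11) and Nid2 (-1.62) fell without overlap, as did the collagen receptor subunit Itga2 (-1.25). Proteoglycans and matrix glycoproteins gave 7 lower and 1 higher of 30 tested, with Fbn2, the fetal fibrillin, at -2.13 and Postn, the secreted protein periostin, at -1.71 with overlapping groups. Acan and Ncan were at or under 3 counts in every P60 library. Dcn, the small proteoglycan decorin, stood at 2147, 1201, 2451 and 2764 CPM at P24 and 4139, 2588, 2873 and 3375 CPM at P60, with overlapping groups (log2 fold change 0.60 ± 0.20, adjusted p = 0.04), and Sparc at 14217 ± 368 and 12264 ± 1079 CPM (adjusted p = 0.28). Without P24 replicate 2, 7 basal lamina genes and 7 proteoglycan genes were lower, and 0 of the latter higher. With both replicates numbered 2 left out, the lower genes numbered 8 and 5. Of the processing genes, 3 were then lower and 2 higher. The calls that rested on single libraries were those of Ncan (without P24 replicate 2, with an adjusted p of 0.095) and Postn (without P24 replicate 3, -1.46 with an adjusted p of 0.05).

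**Figure D4:**
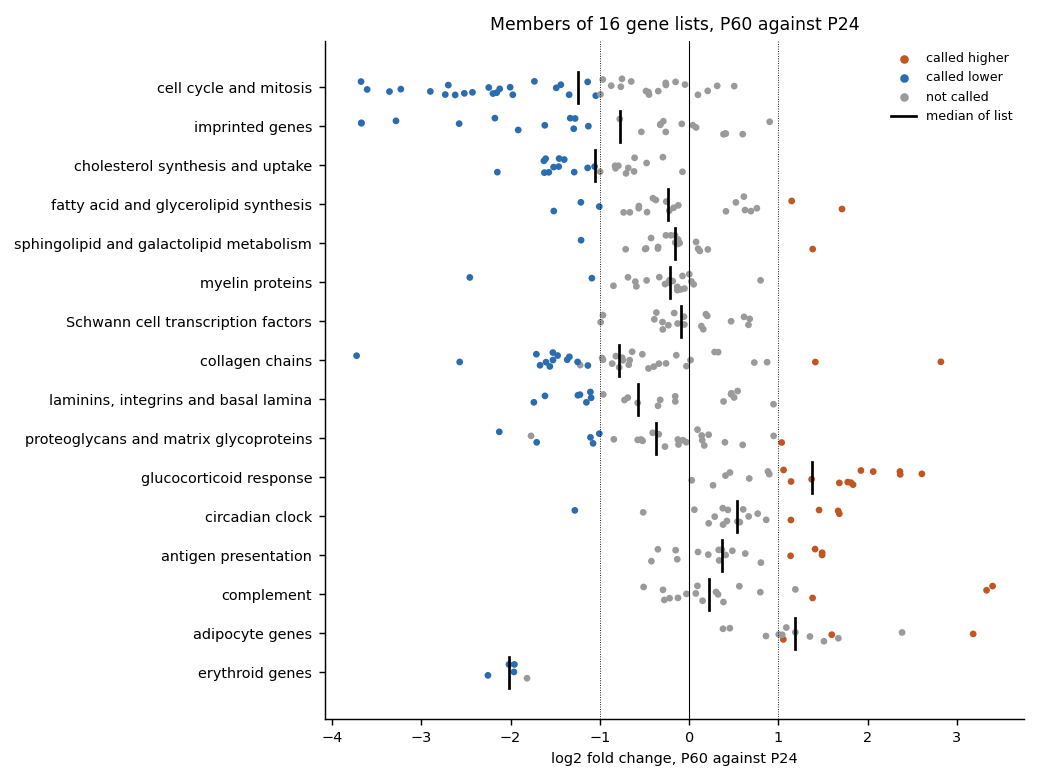
Log2 fold changes at P60 against P24 of the tested members of 16 gene lists, one point per gene, with called genes in colour, the list median as a black bar and the 2-fold limits as dotted lines. Genes with at most 3 counts in every library of a stage are left out of the points. The medians of the cell cycle, imprinted, cholesterol, collagen and basal lamina lists lie to the left of 0, and all glucocorticoid response genes lie to the right.

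Glucocorticoid response genes shifted upward as a list. Glucocorticoids are adrenal steroids released in a daily rhythm and under stress, and their receptor activates a known set of target genes in most tissues. All 19 tested genes of the list had a positive log2 fold change, 12 (63.2%) were called higher, and the median was 1.37. Tsc22d3 (chrX:140539528-140600659), the leucine zipper protein GILZ, was measured at 124, 81.1, 122 and 212 CPM at P24 and 856, 822, 895 and 716 CPM at P60 (log2 fold change 2.61 ± 0.21, adjusted p = 1.2e-09). Fkbp5, a co-chaperone of the receptor, was measured at 23.7, 8.47, 11.4 and 24.4 CPM at P24 and 81.4, 80.4, 109 and 78.0 CPM at P60 (log2 fold change 2.36 ± 0.23, adjusted p = 3.5e-08). For both genes every P60 library lay above every P24 library, and the P24 libraries themselves differed by more than 2-fold. Hsd11b1, the enzyme that regenerates active glucocorticoid, rose by 2.36, Pdk4 by 2.06, Hif3a by 1.92, the metallothionein gene Mt2 by 1.84 (2.49 without P24 replicate 1), Zbtb16 by 1.81 (2.44 without P24 replicate 4), Map3k6 by 1.78 and the kinase gene Sgk1 by 1.37. Klf9 (1.14) and Errfi1 (1.06) were just above 2-fold. The receptor gene Nr3c1 was measured at 155, 180.1, 168 and 179 CPM at P24 and 169, 171, 174 and 161 CPM at P60, with overlapping groups (adjusted p = 0.99). The hour of dissection and the handling of the animals at each age were not given in the sources used here, so age and these conditions cannot be told apart. One call was lost by leaving out 1 library, that of Errfi1 (without P24 replicate 2 or P60 replicate 2, 0.97 to 0.98 with an adjusted p of up to 6.1e-06).

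Of 19 clock genes tested, 4 were higher and 1 lower, 17 had positive values, and the median was 0.54. Since the hour of dissection was not given, age and time of day cannot be told apart here either. Per1 (chr11:69095217-69109960), which is both a repressor of the clock and a glucocorticoid target, was measured at 71.3, 38.1, 53.0 and 64.0 CPM at P24 and 156, 200.4, 187 and 183 CPM at P60 (log2 fold change 1.68 ± 0.26, adjusted p = 3.9e-05), and Per2 at 10.6, 8.05, 8.64 and 16.1 CPM at P24 and 29.7, 30.2, 43.5 and 35 CPM at P60 (log2 fold change 1.67 ± 0.20, adjusted p = 5.6e-07). The repressor gene Cry2 (1.14) and Bhlhe41, a repressor of the same loop (1.46), were higher as well, and Npas2, an activator, fell by 1.28 with overlapping groups. Some other clock genes were not called, among them Arntl at 0.54 (adjusted p = 0.028), Clock at 0.06 (adjusted p = 0.92), Nr1d1 at 0.86 (adjusted p = 0.0022) and Dbp at 0.38 (adjusted p = 0.16). The sequence upstream of a RefSeq start of Per1 (plus strand, chr11:69098699-69098948) is given with its E-box CACGTG, the element bound by CLOCK and BMAL1, in capitals.
Per1: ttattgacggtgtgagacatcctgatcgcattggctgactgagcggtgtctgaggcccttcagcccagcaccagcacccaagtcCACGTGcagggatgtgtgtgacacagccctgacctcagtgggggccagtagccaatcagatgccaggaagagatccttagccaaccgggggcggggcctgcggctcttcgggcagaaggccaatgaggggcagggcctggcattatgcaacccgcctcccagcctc
A CACGTG was found in 6 of 21 upstream windows of the clock genes (28.6%), in 7.74% of windows of the genes tested and in 6.02% of all windows. The shares were 3.03% for cell cycle, 11.5% for glucocorticoid and 21.1% for cholesterol windows.

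Growth factors, hormone receptors and immediate early genes had calls in both directions. Of 31 growth and trophic factors, 2 were higher (6.45%) and 4 lower (12.9%), against 2.55% and 3.41% of all genes. Cntf (chr19:12763660-12765632), the ciliary neurotrophic factor stored in myelinating Schwann cells, was measured at 568, 601, 461 and 449.7 CPM at P24 and 1853, 1821, 2032 and 1717 CPM at P60 (log2 fold change 1.84 ± 0.13, adjusted p = 1.4e-10), and it lies within the gene Zfp91 on the same strand, so reads may be shared. Zfp91 itself rose by 1.52, so the rises of these overlapping genes cannot be told apart. Nrg1, the neuregulin that directs myelination, rose by 1.53 from a low level of 0.879 ± 0.431 CPM. Igf1, the growth factor of the growth hormone axis, was measured at 44.3, 29.8, 72.7 and 61.5 CPM at P24 and 23.9, 18.6, 17.5 and 24.5 CPM at P60 (-1.30 ± 0.30). Vegfa, the angiogenic factor, fell by 1.19 and Mdk, the heparin-binding factor midkine, by 1.05, and Igf2 is described above. Among 24 hormone and nuclear receptor genes, Esr2, an estrogen receptor, was lower (-1.30) from 1.56 ± 0.269 CPM at P24, and Dio3, the deiodinase that inactivates thyroid hormone, was called higher but had at most 3 counts in every P24 library. Immediate early genes gave 2 higher and 2 lower of 23 (8.70% each way), with Junb at 1.43, Klf2 at 1.14, Egr3 at -1.83 and Arc at -1.18. Fos stood at 7.28 ± 0.896 and 7.52 ± 2.17 CPM (adjusted p = 0.96). None of the 9 secreted Wnt antagonists was called (5 at an unadjusted p under 0.05, 0 by DESeq2, 0 by limma-voom, 2 without P24 replicate 2, 1 without both replicates numbered 2 and 2 without the fold minimum). Calls were lost, when 1 library was left out, for Nrg1 (without P24 replicate 1, 1.27 with an adjusted p of 0.055), Mdk (without P24 replicate 3 or P60 replicate 1 or 2, -1.0 to -0.92 with an adjusted p of up to 0.056), Esr2 (without P24 replicate 1, 2, 3 or 4 or P60 replicate 1, 2 or 4, -1.46 to -0.99 with an adjusted p of up to 0.14), Junb (without P24 replicate 4 or P60 replicate 4, 1.23 to 1.24 with an adjusted p of up to 0.053), Klf2 (without P24 replicate 2, 0.98 with an adjusted p of 0.00039) and Arc (without P24 replicate 2 or P60 replicate 1 or 4, -1.14 to -1.04 with an adjusted p of up to 0.064).

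Among immune genes, 4 genes of class II antigen presentation rose. H2-Aa (chr17:34282744-34287823), the alpha chain of a class II molecule, was measured at 33.7, 28.1, 43.1 and 34.8 CPM at P24 and 106, 112, 70.2 and 105 CPM at P60 (log2 fold change 1.49 ± 0.19, adjusted p = 2.2e-06). H2-Eb1 (1.49), H2-Ab1 (1.41) and Cd74, the invariant chain (1.14), also rose without overlap, and they were the 4 called genes among 17 antigen presentation genes, of which the other 13 were not called. No macrophage or leukocyte gene of the list was called higher. The 4 immune markers Ptprc, Cd68, Adgre1 and Csf1r summed to 76.6 to 130.4 CPM at P24 and 84.1 to 114 CPM at P60. Cx3cr1, the fractalkine receptor of resident macrophages, was measured at 16.9, 16.2, 17.9 and 23.3 CPM at P24 and 9.72, 9.14, 4.29 and 6.22 CPM at P60, a fall (log2 fold change -1.35 ± 0.20, adjusted p = 1.6e-05). In all, 4 of 19 macrophage and leukocyte genes were lower, of which S100a8 and S100a9 had at most 3 counts in every P60 library and were high in P24 replicate 2 alone, and the count was 1 without both replicates numbered 2. None of 25 interferon response genes was called (2 at an unadjusted p under 0.05, 0 by DESeq2, 0 by limma-voom and 0 without the fold minimum). Of 18 complement genes, 3 were higher: C3, C4b with 211, 226, 192 and 178 CPM at P24 and 537, 519, 557 and 490.2 CPM at P60 (1.38 ± 0.24), which has a near-identical copy, and C7, with 1.42, 0.262, 0.790 and 0.339 CPM at P24 and 19.7, 5.51, 1.68 and 1.38 CPM at P60, for which the groups overlapped and P60 replicate 1 was far above the rest. The log2 fold change of C7 was 3.40, and 2.08 without that library. Mast cell genes were low, and 2 of 9 were higher. The growth factor receptor gene Kit, which mast cells share with other cells, rose by 1.5, and the mast cell receptor gene Mrgprb1 was at 0 to 0.198 CPM at P24 and 0.653 to 2.51 CPM at P60. The protease genes Cpa3 (log2 fold change 1.73, adjusted p = 0.27) and Mcpt4 (2.01, adjusted p = 0.11) did not pass the test. Leaving out 1 library ended the calls of S100a8 (without P24 replicate 2 or P60 replicate 2, 3 or 4, with an adjusted p of up to 0.41) and S100a9 (without P24 replicate 2, with an adjusted p of 0.33).

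Genes of vessels, sheaths and other cells of the nerve were counted by list. Of 27 endothelial and barrier genes, 3 were lower and none higher, and these counts were the same without P24 replicate 2 and without both replicates numbered 2. In the whole list, 20 genes had positive values (median 0.31) and 7 passed the p threshold as higher, all under 2-fold. The 4 endothelial markers summed to 146 to 257 CPM at P24 and 287 to 309 CPM at P60, without overlap. Aplnr, the apelin receptor of growing vessels, fell by 1.36 and its ligand Apln by 1.02. Prox1, the lymphatic factor, was called but had at most 3 counts in every P60 library. Cldn5, the barrier claudin, stood at 53.5 ± 7.72 and 83.1 ± 18.9 CPM without overlap, and did not pass the test (adjusted p = 0.096). None of 14 pericyte and smooth muscle genes was called (2 at an unadjusted p under 0.05, 0 by DESeq2, 0 by limma-voom and 2 without the fold minimum). Of 10 perineurial genes, the connexin genes Gjb2 (-2.18) and Gjb6 (-1.88, with overlapping groups) were lower, whereas Slc2a1, the glucose transporter of the perineurium, was at 159.9 ± 42.8 and 256 ± 19.8 CPM and under 2-fold (0.68, adjusted p = 0.036). The other 8 perineurial genes, Slc2a1 included, had positive values, the median of the list was 0.37, and its summed level was 1129 ± 185 CPM at P24 and 1790.1 ± 233 CPM at P60. The 3 perineurial markers summed to 518 to 785 CPM at P24 and 989 to 1387 CPM at P60, without overlap. Of the perineurial list, 2 genes were lower without P24 replicate 2 and 1 without both replicates numbered 2. Of 11 epineurial fibroblast genes, Gpx3 was higher (1.24) with overlapping groups, and of 9 endoneurial genes, Col2a1 was lower (-1.13). The epineurial count was 0 without P24 replicate 2 and 0 without both, and the endoneurial count 1 and 1. All 15 tested adipocyte genes had positive values (median 1.19), and 3 were higher: Plin4, Cdo1, which degrades cysteine (1.60), and Pnpla2, the triglyceride lipase (1.05). Adipoq, the defining hormone of fat cells, stood at 22.4, 0.785, 33.4 and 18.8 CPM at P24 and 24.4, 19.2, 47.6 and 59.5 CPM at P60, with overlapping groups (adjusted p = 0.42). The adipocyte list had 2 calls without P24 replicate 2 and 2 without both replicates numbered 2. It had 5 without P24 replicate 3 and 6 by limma-voom. All 7 tested erythroid genes had negative values and 4 were lower, among them the beta globin gene Hbb-bs with 79.9, 104, 65.6 and 42.7 CPM at P24 and 15, 23.1, 11.4 and 22.5 CPM at P60 (log2 fold change -2.02 ± 0.57, adjusted p = 0.015). The number of erythroid calls ran from 0 (without P60 replicate 3) to 6 (without P24 replicate 4), with 7 by DESeq2 and 1 by limma-voom. Globin copies share reads. Of 19 axonal and neuronal transcripts, Calca, the gene of the neuropeptide CGRP (1.25), and Snap25, a protein of synaptic vesicle release (1.25), were higher, and 0 were called without both replicates numbered 2. The 5 neuronal cell body markers summed to 5.91 to 8.67 CPM at P24 and 10.7 to 15.5 CPM at P60, without overlap. Their part in these calls was not tested. Several of these calls rested on single libraries, those of Apln (without P24 replicate 1 or 3 or P60 replicate 1 or 3, -0.95 to -0.86 with an adjusted p of up to 0.019), Gpx3 (without P24 replicate 1, 2 or 4 or P60 replicate 1, 3 or 4, 0.92 to 1.33 with an adjusted p of up to 0.21), Col2a1 (without P60 replicate 3, -0.92 with an adjusted p of 0.06), Pnpla2 (without P24 replicate 2 or 4 or P60 replicate 3 or 4, 0.95 to 0.99 with an adjusted p of up to 0.0054), Hbb-bs (without P60 replicate 3, -1.85 with an adjusted p of 0.059), Calca (without P24 replicate 1, 2, 3 or 4 or P60 replicate 1 or 3, 0.94 to 1.34 with an adjusted p of up to 0.2) and Snap25 (without P60 replicate 2, 1.06 with an adjusted p of 0.05).

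The last comparison asked, gene by gene, whether the step from P24 to P60 differed from the step from P5 to P14, in which Schwann cells build most of the myelin sheath. The steps share no libraries and span 36 and 9 days, so differences are per step and not per day. For 1454 of 17700 genes (8.21%) the difference of the log2 fold changes was called, with 434 more positive (2.45%) and 1020 more negative (5.76%) in the later step. With library size alone, the split was 935 to 674, so the direction in which most of these genes differed depended on the scaling. Of 23 cholesterol genes, 20 differed, all with the more negative change in the later step, and their median change had been 0.34 from P5 to P14. Igf2 had a change of 0.85 from P5 to P14 that was not called and differed by -4.52 ± 0.27, adjusted p = 7.9e-12, Col3a1 had a change of 0.01 that was not called either and differed by -2.58 ± 0.29, adjusted p = 3.4e-07, and Pmp2 had a change of 0.31 that was not called and differed by -2.77 ± 0.24, adjusted p = 5.2e-09. Of the cell cycle genes, 38 of 40 had already fallen from P5 to P14, and the later step was more negative for 3 and less negative for 9. Of the glucocorticoid genes, 13 of 19 had already risen from P5 to P14, 1 differed upward and 5 downward in the later step, and their median change had been 1.33 in the earlier step.

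The genes with the most positive difference were Etnppl (7.57 ± 1.46, adjusted p = 0.00055), B4galnt1 (3.26 ± 0.51, adjusted p = 4.1e-05), Col24a1 (3.00 ± 0.38, adjusted p = 2.2e-06) and Gpnmb (2.82 ± 0.37, adjusted p = 3.2e-06). None of them was called in the earlier step, with log2 fold changes of 0.85, -0.07, -0.19 and -0.06. Among the negative differences, the naming rule gave Ces1d, a lipase of fat (adjusted p = 0.017), Retnla, a product of alternatively activated macrophages and fat (adjusted p = 1.1e-05), Kcnj13, a potassium channel (adjusted p = 0.00029), and Cyp4f14, a fatty acid hydroxylase (adjusted p = 6.3e-10). These genes had risen from P5 to P14 and were not called from P24 to P60, where Retnla stood at 13.8 ± 6.03 and 18.6 ± 8.05 CPM. No P5 library held more than 3 counts of any of them, so no size is given for these differences. Etnppl had at most 6 counts in any P5 library and 5 in any P14 library. Ces1d, Retnla and Kcnj13 had their lowest P24 values in replicate 2.

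Genes called in both steps mostly kept their direction. Of the 604 genes lower at P60, 242 (40.1%) had also been lower at P14 than at P5, which is 27.8% of the 869 genes called lower in that step, and 39 had been higher. Of the 451 genes higher at P60, 167 (37.0%) had also been higher at P14, which is 13.3% of 1258, and 14 had been lower. Over all genes tested, 4.91% were lower and 7.11% higher at P14 than at P5.

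**Figure D5:**
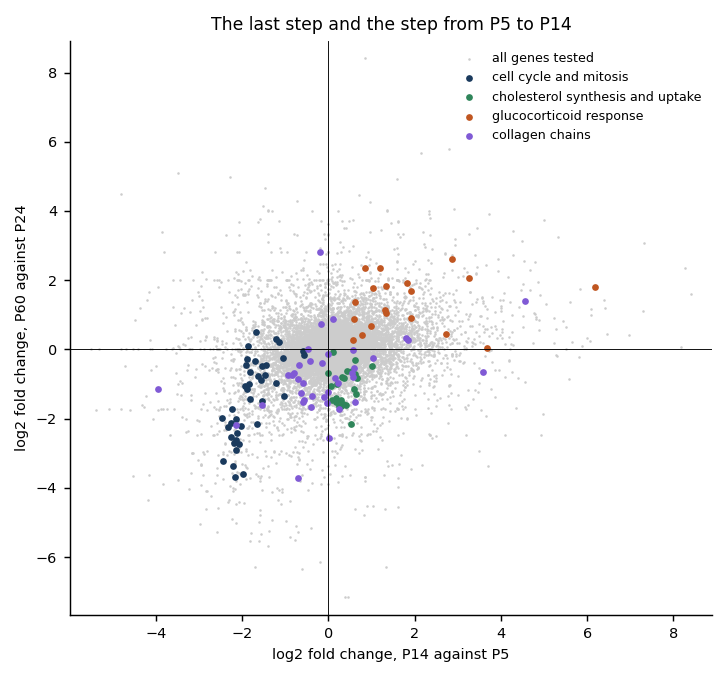
Log2 fold change at P60 against P24 (vertical) plotted against the log2 fold change at P14 against P5 (horizontal) for all 17700 genes tested (grey) and the members of 4 lists in colour. Cell cycle genes lie low and to the left, cholesterol genes lie low and slightly to the right, and glucocorticoid genes lie high and to the right.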

How the data were processed

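Total RNA of mouse nerves at 7 stages (4 libraries each) was converted to stranded poly-A libraries and sequenced from 1 end. Each postnatal library came from the sciatic nerves of 1 mouse. The embryonic libraries pooled 2 embryos, with sciatic nerve at E17 and several peripheral nerves at E13, although the labels give sciatic nerve throughout. The deposited values are raw counts per gene, which the authors made by trimming, alignment with STAR (version 2.6.1c in the submitters' processing notes) and featureCounts against Ensembl annotation. The build is GRCm38.p5 in the notes and another name in the study's methods, the gene identifiers are mouse, and the strand and multi-mapping settings are not given in the sources used here. Symbols and coordinates came from the GENCODE annotation of GRCm38, which held 41519 of 41605 identifiers. Promoter and miRNA sequences came from RefSeq (GRCm38.p6).

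Here, counts of all 28 libraries were fitted in 1 model with stage as the term (R 4.3.3, edgeR 4.0.16, TMM, filterByExpr, quasi-likelihood F-test with robust dispersion), so that the spread was estimated over all stages. Genes were called at a Benjamini-Hochberg adjusted p under 0.05 and a fold change of at least 2. The difference of steps was a contrast of the same fit. Depth was 14748717 to 30210173 counts at P24 and 14499650 to 17167414 at P60, at which 3 counts correspond to at most 0.236 CPM at P24 and 0.219 CPM at P60, counting error only. No fold is given for genes with at most 3 counts in every library of a stage. On simulated data with 200 changed genes among 17367, the procedure called 200 of these and 3 others. The median absolute error was 0.15 on the log2 scale. These values hold for the data as simulated, and recovery in the measured libraries was not tested. P-values measure the spread between libraries of the same stage, estimated over all 28 libraries, and no other source. E13 replicates 1 and 4 lay farthest from the other libraries of their stage. Without the E13 libraries, 1169 genes were called for P60 against P24.

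Named genes are the 12 largest rises and 12 largest falls that were called, did not overlap between the stages, reached a mean of 10 CPM at either of them and had more than 3 counts in some library of both. For each of 44 gene lists they are up to 4 called members per direction and the 4 most abundant others. They also include the study's cell type markers and the 4 largest differences of steps per direction. Named outside that rule, after their values were seen, were Apod, Arntl, Ccna2, Ccnb1, Cdk1, Cdkn1c, Cdkn2a, Col14a1, Col15a1, Col5a1, Col6a1, Col6a2, Col6a3, Cyp51, Dbp, Dhcr7, Errfi1, Fdft1, Fdps, Fos, Fth1, Grb10, Hif3a, Insig1, Klf9, Lama2, Lama4, Lss, Mag, Magel2, Map3k6, Mcm2, Mcm5, Mirg, Mvk, Ndn, Nid1, Nsdhl, Plagl1, Pou3f1, Rian, Slc38a4, Spp1, Sqle, Srebf2, Zbtb16 and Zim1. Zfp91, Vps51 and Gm49394 were named because they overlap named genes. The comparison, the lists and the alternatives were chosen with earlier results of these data known. Alternatives were normalisation by DESeq2's factors or by library size alone, other low-count filters, limma-voom (limma 3.58.1), DESeq2 1.42.0, other sets of libraries, a replicate block, removal of a GC trend, other fold limits, and each library left out. Leaving out both replicates numbered 2 was added after the data were seen. Some genes are not reported here, and 27 list genes had too few counts to be tested.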

Additional observations from a re-analysis of the deposited data

Results flagged for a closer look

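In groups of 4 libraries, chance alone sets about 1 in 20 apart by the measure used here, the gap of the extreme library to its neighbour over the range of the group (Dixon's test), and 32 of 400 gene and stage groups were set apart. P24 replicate 2 accounted for 11 of them and P60 replicate 2 for 6. P24 replicate 2 stood above the other 3 libraries for Acan (0.262 CPM against 0.148 to 0.158), Gjc3 (765 CPM against 549.6 to 586), Msmo1 (960.3 CPM against 806 to 831), Pmp2 (2929 CPM against 2141 to 2273), S100a8 (2.62 CPM against 0 to 0.296), S100a9 (5.39 CPM against 0 to 0.494) and Ugt8a (4062 CPM against 3031 to 3197). P24 replicate 2 stood below the other 3 libraries for Col1a2 (4414 CPM against 5457 to 5658), Col5a1 (581 CPM against 762 to 777), Col6a2 (187 CPM against 407 to 439.9) and Csf1r (48.9 CPM against 80.6 to 83.6). P24 replicate 1 stood above the other 3 libraries for Mt2 (248 CPM against 69.5 to 86.0). P24 replicate 1 stood below the other 3 libraries for Acsl3 (159 CPM against 196 in each) and Nrg1 (0.237 CPM against 1.04 to 1.15). P24 replicate 4 stood above the other 3 libraries for Lama2 (1305 CPM against 1088 to 1124). P24 replicate 4 stood below the other 3 libraries for Tm7sf2 (157 CPM against 168 to 170.2). P60 replicate 2 stood above the other 3 libraries for Cyp4f14 (19.9 CPM against 13.9 to 14.8), Errfi1 (151 CPM against 121 to 122), Mvd (62.1 CPM against 39.2 to 42.9), Ngfr (47.2 CPM against 30.9 to 33.5) and Nrg1 (3.05 CPM against 2.49 to 2.56). P60 replicate 2 stood below the other 3 libraries for Cpa3 (4.35 CPM against 7.09 to 7.60). P60 replicate 1 stood above the other 3 libraries for Aplnr (6.72 CPM against 4.35 to 4.73), Lama4 (337 CPM against 289 to 296) and Usp29 (0.0731 CPM against 0 in each). P60 replicate 1 stood below the other 3 libraries for Cdkn1a (476 CPM against 541 to 546). P60 replicate 3 stood above the other 3 libraries for Calca (5.66 CPM against 2.70 to 3.14), Fkbp5 (109 CPM against 78.0 to 81.4), Mcm2 (4.17 CPM against 3.64 to 3.73) and Trim71 (0.249 CPM against 0.0628 to 0.0731). P60 replicate 3 stood below the other 3 libraries for H2-Aa (70.2 CPM against 105 to 112) and Mki67 (1.06 CPM against 2.10 to 2.27).

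The change from P24 to P60 differed from that from P5 to P14, by the test of the difference itself, for 1454 genes. The largest positive differences on the log2 scale were those of Etnppl (7.57 ± 1.46, adjusted p = 0.00055), B4galnt1 (3.26 ± 0.51, adjusted p = 4.1e-05), Col24a1 (3.00 ± 0.38, adjusted p = 2.2e-06) and Gpnmb (2.82 ± 0.37, adjusted p = 3.2e-06), and negative differences were found for Ces1d (adjusted p = 0.017), Retnla (adjusted p = 1.1e-05), Kcnj13 (adjusted p = 0.00029) and Cyp4f14 (adjusted p = 6.3e-10). In every P60 library the first 4 genes lay above every P24 library, whereas for the last 4 the libraries of both stages overlapped. The last 4 had at most 3 counts in every P5 library, so no size is given for their differences.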

How the results depend on the processing

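Over the other alternatives than those given next, and with all libraries of both stages, 894 (only the compared libraries in the fit) to 1314 genes (limma-voom) were called. Without a fold minimum 2845 genes passed (1211 higher and 1634 lower), and with the 2-fold limit inside the test (glmTreat) 249 (69 and 180). For the difference of steps these counts were 2671 (999 and 1672) and 331 (63 and 268), and with library size only 1609 (935 and 674). The share of higher genes among the calls was 42.7%, and 52.5% with library size only, 49.1% with only the compared libraries in the fit and 38.0% without both replicates numbered 2. Leaving out each library in turn gave 899 to 1044 calls (362 to 446 higher, 530 to 600 lower) and, for the difference of steps, 1339 to 1433. Correlations between the deviations of same-numbered libraries were -0.00818, 0.249, 0.0531 and 0.0823, so the numbers were not taken as pairs, and a replicate block gave 1055 calls (450 and 605) and 1468 for the difference of steps. Not every library correlated best with its own number.

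Of 146 called genes named in the text, 134 could be tested under every alternative, and 106 of these kept their call under all but glmTreat. The other 12 were not tested under some alternative, by its filter on low counts. Where tested, none of the 146 changed sign, and 26 lost it without some single library. Of 54 named genes that were not called, 8 gained a call under alternatives that kept a fold minimum, Lox under 14, Sqle under 7, Pou3f1 under 6, Kcnj13 under 5, Mcm2 under 4, Mcpt4 under 4, Ccnd1 under 3 and Cpa3 under 1, and a further 20 only without it. The log2 fold changes that did change sign belonged to genes that were not called and lay near 0. With library size only they were 0.055 for Etnk1, 0.038 for Cdkn2a, 0.023 for Ncmap, 0.10 for Nr3c1 and 0.039 for Srebf2. With limma-voom they were -0.14 for Cd68 and -0.045 for Fos, and without both replicates numbered 2 -0.20 for Cd68, 0.00965 for Etnk1 and 0.00606 for Nr3c1. Nr3c1 was also at 0.000874 with DESeq2 size factors, 0.000929 with DESeq2, 0.00073 with the stricter filter, 0.013 with the GC trend removed and 0.012 with the replicate block as well. Leaving out 1 library gave -0.10 to 0.14 for Cd68, -0.33 to 0.16 for Cdkn2a, -0.037 to 0.22 for Cyp4f14, -0.13 to 0.011 for Etnk1, -0.17 to 0.15 for Fos and -0.061 to 0.011 for Nr3c1. On a scale per length, 9 of the 24 genes of largest change moved by more than 2 places in their order of level, and levels of different genes are not compared here. The cause of these differences was not tested.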

Other observations

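Genes of ribosomes and energy metabolism gave no calls. None of the 80 cytosolic ribosomal protein genes was called by edgeR (4 at an unadjusted p under 0.05, 0 by DESeq2, 0 by limma-voom and 1 without the fold minimum), with a median log2 fold change of 0.10. Likewise none of the 74 nuclear genes of the respiratory chain was called by edgeR (28 at an unadjusted p under 0.05, 0 by DESeq2, 0 by limma-voom and 12 without the fold minimum), with a median log2 fold change of -0.23. Of these genes, 64 had negative values, and without the fold minimum 11 passed as lower and 1 as higher. Among the 21 genes of glycolysis and lactate transport none was called by edgeR (5 at an unadjusted p under 0.05, 0 by DESeq2, 0 by limma-voom and 5 without the fold minimum), with a median log2 fold change of -0.04. Of the 19 chaperone and unfolded protein response genes of the endoplasmic reticulum none was called by edgeR (15 at an unadjusted p under 0.05, 0 by DESeq2, 0 by limma-voom and 10 without the fold minimum), with a median log2 fold change of -0.49. Hspa5, the main luminal chaperone, stood at 429 ± 52.2 CPM at P24 and 267 ± 23.2 CPM at P60 (log2 fold change -0.68 ± 0.12, adjusted p = 0.00023), and Calr, the calcium-binding lectin chaperone calreticulin, at 465 ± 49.7 and 257 ± 33.5 CPM (log2 fold change -0.86 ± 0.12, adjusted p = 1.1e-05).

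Inhibitors of the cell cycle gave no calls. None of 10 genes of cyclin kinase inhibitors and pocket proteins was called (4 at an unadjusted p under 0.05, 0 by DESeq2, 0 by limma-voom, 1 without P60 replicate 3 and 3 without the fold minimum), with a median of 0.14. Cdkn1a, the p53 target p21, stood at 438 ± 37.9 and 527 ± 34.0 CPM (adjusted p = 0.19), and Cdkn1b, the inhibitor p27, at 262 ± 29.8 and 365 ± 19.5 CPM, under 2-fold (0.48, adjusted p = 0.0048). Cdkn2a was at 1.97, 2.04, 1.09 and 1.09 CPM at P24 and 0.950, 2.03, 0.684 and 2.13 CPM at P60, with overlapping groups (adjusted p = 0.98). Among 15 genes of polycomb complexes and DNA methylation, Cbx7, a chromobox protein of polycomb complex PRC1, was higher. It was measured at 51.6, 52.0, 46.1 and 47.4 CPM at P24 and 125, 121, 146 and 142 CPM at P60 (log2 fold change 1.44 ± 0.19, adjusted p = 4.3e-06), and Uhrf1 is described above. Of 8 oncofetal genes, Hmga2, a chromatin protein of fetal growth, was measured at 3.71, 2.72, 2.22 and 2.18 CPM at P24 and 0.512, 0.943, 0.497 and 0.628 CPM at P60 (log2 fold change -2.04 ± 0.26, adjusted p = 2.6e-06). Igf2bp3 and Trim71 were called too, with at most 3 counts in every library of P60 and of P24 respectively, so no fold is given. The call of Trim71 was lost whichever of the 8 libraries was left out (adjusted p up to 0.17).

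Lists of neighbouring tissues gave few calls. Actn3, the actinin of fast muscle fibres, stood at 15.7, 14.4, 15.7 and 10.8 CPM at P24 and 5.26, 4.57, 5.72 and 5.53 CPM at P60 (log2 fold change -1.42 ± 0.34, adjusted p = 0.004) and was the one called gene of 14 muscle genes. Comp, a matrix protein of cartilage and tendon, was at 0.315, 0.105, 0.543 and 0.489 CPM at P24 and 5.34, 1.45, 2.61 and 2.57 CPM at P60 (log2 fold change 2.99 ± 0.63, adjusted p = 0.0012), whereas Acan had no counts at P60. Of the 8 tendon and cartilage genes tested, Comp was the 1 called higher and Acan the 1 called lower. Ppl was the one called gene of 8 keratinocyte genes.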
